A study of Homo sapiens with 6 samples.

Results

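Cytosolic ribosomal proteins are the protein components of the ribosome, the particle that translates mRNA in the cytoplasm. The genes described here are those listed as protein coding whose symbol carries RPL or RPS with a number, together with RPLP0, RPLP1, RPLP2, RPSA and FAU, without the ribosomal S6 kinases. They number 85 of the 35856 genes listed, of which 78 are core genes (46 of the large subunit and 32 of the small subunit) and 7 are paralogs, second copies that resemble a core gene. Both groups are labelled HCCLM3, a human line of hepatocellular carcinoma. In 3 sequenced libraries the cells had received a vector carrying the long non-coding RNA LINC00862, and 3 were controls labelled NC. The sample titles do not say what the controls had received. The study compared the groups to find which genes respond to LINC00862. The sources used here do not say whether the 3 libraries of a group came from separate transfections, so p-values measure the spread between these libraries, which may be technical.

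Each ribosome holds 1 copy of most of these proteins, and cells make them in step with rRNA. Most of their mRNAs begin with a 5′ terminal oligopyrimidine (TOP) tract, a C at the first transcribed base followed by further C or T, through which the mTOR kinase and LARP1 control their translation. In hepatocellular carcinoma, as in other tumours, ribosome production is tied to growth. Unassembled RPL5 and RPL11, with 5S rRNA, bind MDM2 and thereby stabilise p53.

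LINC00862 itself, the check of the vector, had counts of 11, 21 and 6 in NC against 145, 121 and 76 with LINC00862. Its level was low in both groups, at 0.0214 to 0.0884 FPKM (fragments scaled by gene length and library size) in NC and 0.312 to 0.530 in LINC00862. Its log2 fold change was 3.22 ± 0.53 (SE, adjusted p = 0.000583 from the quasi-likelihood test of edgeR, Benjamini-Hochberg adjusted). Total counts lay between 58241123 and 68229070 per library. Of 20741 genes that passed edgeR's filter on low counts, 64.2% passed a false discovery rate of 0.05, 34.4% as higher and 29.8% as lower, with a median log2 fold change of 0.11. The groups also stood apart in markers of cell identity. Of 18 hepatocyte markers 15 were listed, and their summed FPKM lay between 7.72 and 7.85 in NC and between 1800 and 2212 in LINC00862, mostly from the fibrinogen genes FGA, FGB and FGG. The hepatocyte markers APOA2, APOH, TTR and CYP3A4 were at 0 in every NC library (CYP3A4 and APOA2 also in 2 of the 3 LINC00862 libraries). APOA1 had no rise, with at most 0.189 FPKM in NC and 0.0457 in LINC00862. SERPINA1 of the same list went the other way, from 1.11 to 1.53 FPKM in NC to 0.0658 to 0.144 in LINC00862. ALB had at most 0.0234 FPKM in NC and 1.71 in LINC00862. AFP, a marker of hepatoma, was at 0 in every LINC00862 library. Of 7 fetal liver and hepatoma markers 5 were listed, and their summed FPKM was 44.9 to 85.2 in NC and 2.80 to 2.96 in LINC00862. PEG10 made up nearly all of that sum, while H19 rose and GPC3 and IGF2, at 0 in every NC library, had at most 0.0301 FPKM in LINC00862. The 14 epithelial markers summed to between 258 and 361 in NC and between 616 and 752 in LINC00862, and the 13 mesenchymal markers to between 968 and 989 in NC and between 17.2 and 22.2 in LINC00862. All 22 proliferation genes listed fell. The part of these differences in the ribosomal protein results was not tested. The identity of the cells was not checked beyond these markers, so a difference between the cells of the groups and an effect of the vector cannot be told apart in any fold change given here.

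The sequences around the start of the mRNA are shown for the tract that most core genes carry and most paralogs in the table lack. Each is 30 bases of RefSeq GRCh38.p14, 20 before the annotated start and 10 from it on, 5′ to 3′ on the gene's strand, with the run of C and T from the first base in capitals. The first 3 belong to core genes that rose, RPS21 (chr20:62387083-62387112, plus strand), RPS27 (chr1:153990742-153990771, plus) and RPL4 (chr15:66504846-66504875, minus). The next 3 belong to core genes that fell, RPS12 (chr6:132814549-132814578, plus), RPSA (chr3:39406700-39406729, plus) and RPL10 (chrX:154398357-154398386, plus, 1 of 3 annotated starts). The last 4 set the paralogs RPL26L1 (chr5:172958709-172958738, plus, 1 of 2 starts) and RPS27L (chr15:63157468-63157497, minus) beside RPL26 (chr17:8383184-8383213, minus), the parent of the first, and RPL22L1 (chr3:170870186-170870215, minus).
RPS21: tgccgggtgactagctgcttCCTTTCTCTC
RPS27: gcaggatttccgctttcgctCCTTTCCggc
RPL4: acatatacagcgggagtggtaagcacttcc
RPS12: ggcatgcgtgcggatgaggcCTCTTTCCCT
RPSA: cgtcatttcctgccgcctgtCTTTTCCgtg
RPL10: atgcgcaggcggaggagcgcCTCTTTCCCT
RPL26L1: caggcagtcttccaggggtcggcgaacgaa
RPS27L: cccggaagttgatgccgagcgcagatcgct
RPL26: accggaagcagcgtgtagttCTCTTCCCTT
RPL22L1: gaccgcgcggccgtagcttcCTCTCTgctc

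A TOP start, taken as C at the first base with a pyrimidine run of at least 5, was found at 60.3% of the 78 start sites of the 63 core genes in the RefSeq table, against 4.07% of all 35116 sites. By gene, with a gene counted if any of its start sites had one, it was 47 of 63 core genes and 1 of 5 paralogs, RPL22L1. The motif CGGAAG, on either strand from 250 bases before to 50 after the start, lay at 59.0% of core sites and 19.5% of all sites. Rises and falls were found with and without the tract. Of the 47 core genes with a TOP start 5 rose and 11 fell, and their median log2 fold change was -0.37 with a range of -1.33 to 2.99. Of the 16 without one 1 rose and 5 fell, with a median of -0.35 and a range of -1.01 to 0.97. Of all genes tested 64.2% passed. The split rests on the annotated first base: RPL17, placed among those without a TOP start, had a run of C and T in the 20 bases before it. The RPS21 and RPS12 windows printed above both carry long tracts, and these genes lay at opposite ends of the range.

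Most core genes were at lower levels with LINC00862, and a small set rose. Of the 84 members that passed the filter, 8 rose, 21 fell and 55 did not pass the test, so 34.5% passed against 64.2% of all genes. Among the 78 core genes 8 rose and 18 fell, 57 had a log2 fold change below 0, and the median was -0.31 with quartiles of -0.56 and 0.08. With a change of at least 2-fold asked for as well, 12.8% of core genes passed against 49.8% of all genes. The FPKM of 40 core genes did not overlap between the groups (44 of the 84 members), against 71.1% of all genes tested. The balance of rises and falls depended on the scaling. It was 8 against 18 with TMM, 12 against 9 with upper quartile scaling and 7 against 35 with library size only, while the median of all genes moved from 0.11 to 0.32 and -0.05. Of all genes, 64.2%, 64.4% and 63.9% passed under these scalings. Relative to the median of all genes, the core median was -0.42, -0.43 and -0.41 on the log2 scale under these 3 scalings, and 60, 60 and 59 of the 78 core genes lay below it. The core median was further below it without NC replicate 1 (-0.73, 67 of 78). With DESeq2 the gap was -0.71 (67 of 78), but the median of all genes, 0.42, then ran over 35823 genes without edgeR's filter. The core median itself was -0.29 with DESeq2, near the -0.31 given above.

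**Figure D1:**
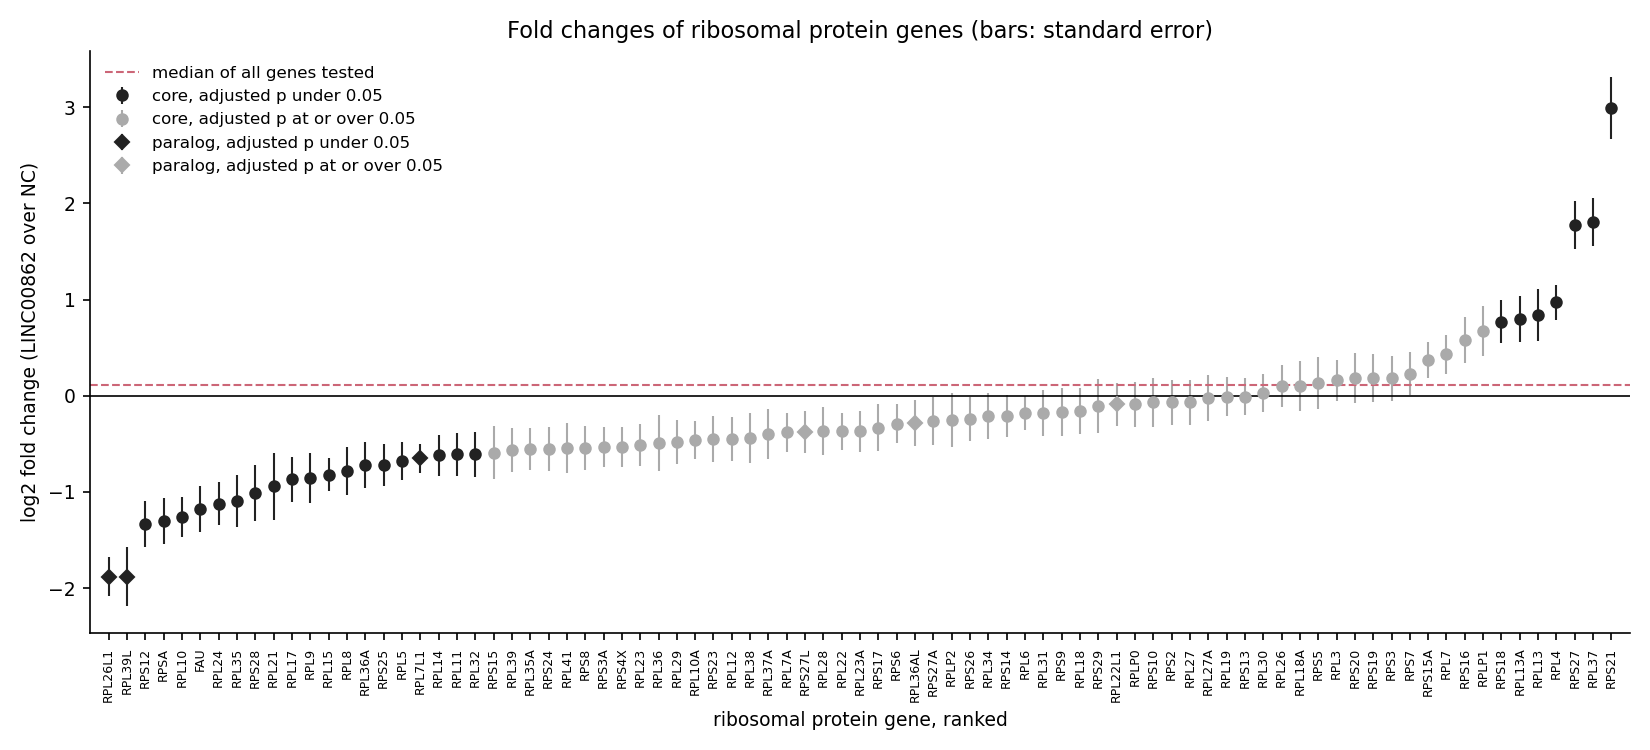
Log2 fold change (LINC00862 over NC, vertical axis) of 83 of the 84 ribosomal protein genes tested, ranked along the horizontal axis. Points are edgeR estimates, bars their standard errors, circles core genes and diamonds paralogs, black where the adjusted p was under 0.05, and the dashed line is the median of all genes tested. RPS21, RPL37 and RPS27 stand apart at the top, and the paralogs RPL26L1 and RPL39L lie at the bottom at -1.88.

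The number of falls depended on which libraries were used. In NC replicate 1 every core gene (78 of 78) had its lowest FPKM of the 3 NC libraries, against 7181 of the 20741 genes tested, and 67 of the 78 mitochondrial ribosomal protein genes did so too. The median core gene in that library lay 0.55 below the NC mean on the log2 scale, and in replicates 2 and 3 it lay 0.19 and 0.34 above. The LINC00862 libraries lay at -0.20, -0.34 and -0.32 on the same scale, between NC replicate 1 and the other NC libraries. The median within-group SD of a core gene was accordingly 0.483 (log2 CPM) in NC and 0.107 in LINC00862, against 0.327 and 0.204 over all genes tested. Without NC replicate 1, 48 core genes fell and 8 rose, so 71.8% passed the test, against 65.5% of all genes (35.9% higher and 29.6% lower). Leaving out another library instead lowered the number of falls, to 9 without NC replicate 2 or LINC00862 replicate 2, 10 without NC replicate 3, 11 without LINC00862 replicate 1 and 12 without LINC00862 replicate 3. Of all genes, between 55.7% and 61.7% passed in these fits. All 26 core genes that passed with every library passed without NC replicate 1, and the core median was then -0.53. The cause of the low level in NC replicate 1 was not tested.

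Summed over the 85 members, the share of all counts was 4.67%, 6.79% and 7.56% in NC and 5.98%, 5.72% and 5.11% in LINC00862. The groups overlapped, with means of 6.34% ± 1.5 and 5.60% ± 0.448 (SD, n = 3 each). The 10 most abundant other genes of any library, 14 genes in all, took 11.7% ± 1.96 of counts in NC and 24.1% ± 5.36 in LINC00862. Outside them the ribosomal share was 5.20%, 7.88% and 8.49% in NC and 7.60%, 7.21% and 7.32% in LINC00862, again overlapping, with the direction of the means turned (7.19% and 7.38%). Both overlaps came from NC replicate 1, since NC replicates 2 and 3 lay above every LINC00862 library under either denominator. Without it the means were 7.17% against 5.60% of all counts, and 8.19% against 7.38% outside the abundant genes. As a share of summed FPKM, which weights short genes more, the members took 5.09%, 6.24% and 7.55% in NC and 4.81%, 4.67% and 3.35% in LINC00862, with no overlap. The share of summed FPKM was thus apart between the groups with all libraries, and the share of counts only when NC replicate 1 was left out. The members' summed FPKM itself overlapped, at 15080 to 24580 in NC and 17160 to 20660 in LINC00862. Over all genes tested the sum was 295500 to 354200 in NC and 419800 to 511500 in LINC00862. Fewer ribosomal protein mRNAs per cell and more mRNA of other genes cannot be told apart in these bulk libraries.

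In NC the core genes moved up and down together. Expressed as a share of the members' own counts, the median SD of a core gene on the log2 scale was 0.1 in NC, against 0.404 as a share of all counts. In LINC00862, with no library as low as NC replicate 1, it was 0.087 against 0.109. The core genes of the large subunit took 61.0%, 60.0% and 59.8% of the members' counts in NC and 57.0%, 57.1% and 57.4% in LINC00862. The small subunit took 37.9%, 39.0% and 39.3% in NC and 42.4%, 42.2% and 41.8% in LINC00862. Neither subunit overlapped between the groups, but RPS21 carried most of the shift. Without RPS21 the small subunit took 37.6%, 38.6% and 38.9% in NC and 39.6%, 39.5% and 38.99% in LINC00862, and the large subunit 61.2%, 60.4% and 60.2% in NC and 59.7%, 59.8% and 60.2% in LINC00862, where it overlapped. By the test on single genes, 4 large-subunit genes rose and 13 fell of 46 (median -0.39), and 4 small-subunit genes rose and 5 fell of 32 (median -0.19), that is 37.0% and 28.1% against 64.2% of all genes. As a description of genes picked for their change, the 8 that rose took 11.2% to 11.4% of the members' counts in NC and 25.7% to 26.8% in LINC00862, and the 18 that fell took 22.9% to 23.2% and 12.5% to 12.6%.

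RPS21 (chr20:62387103-62388520 in the deposited hg38 table), a small-subunit protein, changed most. Its FPKM was 179, 346 and 394 in NC and 2366, 2216 and 1995 in LINC00862. Every LINC00862 library lay far above the highest NC library. The log2 fold change was 2.99 ± 0.32 (SE, adjusted p = 4.46e-05, edgeR), and RPS21 went from 0.440% to 0.609% of the members' counts in NC to 4.51% to 4.60% in LINC00862, where it was the most abundant core gene by FPKM. The highest core means were RPS12 (FPKM 1002 ± 265), RPL41 (755 ± 154) and RPL8 (706 ± 204) in NC, and RPS21 (2192 ± 186), RPS27 (1038 ± 108) and RPL13A (893 ± 146) in LINC00862 (SD, n = 3). RPS29 was the lowest in both groups (11.6 ± 4.25 and 9.66 ± 0.202). The length that the deposited FPKM of RPS29 implies, 9845 bases, is longer than its longest coding transcript of 7062 bases, so such low levels depend on the gene model.

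RPL37, a zinc-binding protein of the large subunit, had FPKM of 29.4, 46.4 and 47.3 in NC and 128, 117 and 140 in LINC00862, with no overlap. Its log2 fold change was 1.81 ± 0.25 (SE, adjusted p = 0.000195, edgeR). RPS27, a zinc-binding protein of the small subunit, had FPKM of 229, 364 and 419 in NC and 1120, 1079 and 916 in LINC00862. All LINC00862 libraries lay above all NC libraries, and the log2 fold change was 1.77 ± 0.25 (SE, adjusted p = 0.000269, edgeR). RPL4, which lines the tunnel through which the new peptide leaves, had FPKM of 263, 307 and 319 in NC and 537, 503 and 505 in LINC00862. The groups lay well apart, with a log2 fold change of 0.97 ± 0.18 (SE, adjusted p = 0.00129, edgeR). These 4 genes passed in each alternative tried.

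Smaller rises were found in RPL13 (log2 fold change 0.84), RPL13A (0.80) and RPS18 (0.77), with adjusted p of 0.0206, 0.0173 and 0.0119 by edgeR. RPL13A, which besides its place in the ribosome takes part in silencing interferon-induced transcripts, had FPKM of 409, 599 and 696 in NC and 981, 974 and 724 in LINC00862. Its lowest LINC00862 library lay just above its highest NC library. RPL13A lost its call in 6 of 16 alternatives, RPL13 in 5 and RPS18 in 2. RPL13 did not pass without NC replicate 2 or LINC00862 replicate 1 or 3 (adjusted p 0.0544 to 0.0589), nor RPL13A without LINC00862 replicate 1 or 2 (0.0625 and 0.0546, edgeR). The log2 fold changes were then 0.82 to 0.87 for RPL13 and 0.74 and 0.77 for RPL13A, close to those from all libraries.

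RPS12 fell most among core genes. This small-subunit protein had FPKM of 704, 1091 and 1212 in NC and 401, 356 and 318 in LINC00862. The groups were clear of each other even with the low NC replicate 1, and the log2 fold change was -1.33 ± 0.24 (SE, adjusted p = 0.00103, edgeR). RPSA, the small-subunit protein also known as the laminin receptor, had FPKM of 237, 307 and 402 in NC and 129, 125 and 90.4 in LINC00862. All LINC00862 libraries were lower, with a log2 fold change of -1.30 ± 0.24 (SE, adjusted p = 0.00125, edgeR). RPL10, a large-subunit protein that joins late in assembly, had FPKM of 278, 350 and 393 in NC and 142, 142 and 99.4 in LINC00862. Again no library overlapped, and the log2 fold change was -1.26 ± 0.21 (SE, adjusted p = 0.000689, edgeR).

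FAU, which encodes a small-subunit protein fused behind a ubiquitin-like domain, fell by 1.18 on the log2 scale (adjusted p = 0.00203, edgeR), from FPKM of 128, 201 and 228 to 78.7, 75.4 and 66.4. RPL24, a late-joining protein at the bridge between the subunits, fell by 1.12 (adjusted p = 0.0019, edgeR), and RPL35, which sits near the exit of the peptide tunnel, fell by 1.09 (adjusted p = 0.00659, edgeR). RPS28 and RPL21 were less firm. RPS28 had FPKM of 53.9, 83.8 and 121 in NC and 43.6, 38.7 and 33.1 in LINC00862, a log2 fold change of -1.01 ± 0.29 (SE, adjusted p = 0.0128, edgeR). It did not pass without LINC00862 replicate 3 (adjusted p = 0.0547) or with the reads of its pseudogenes, given further on. RPL21 overlapped between the groups, at 98.7, 214 and 254 in NC and 100.1, 107 and 62.7 in LINC00862, with a log2 fold change of -0.94 ± 0.35 (SE, adjusted p = 0.0418, edgeR), and it lost its call in 11 of 16 alternatives, including each library left out but NC replicate 1. The remaining 10 falls, in RPL17, RPL9, RPL15, RPL8, RPL36A, RPS25, RPL5, RPL14, RPL11 and RPL32, had log2 fold changes between -0.87 and -0.61.

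**Figure D2:**
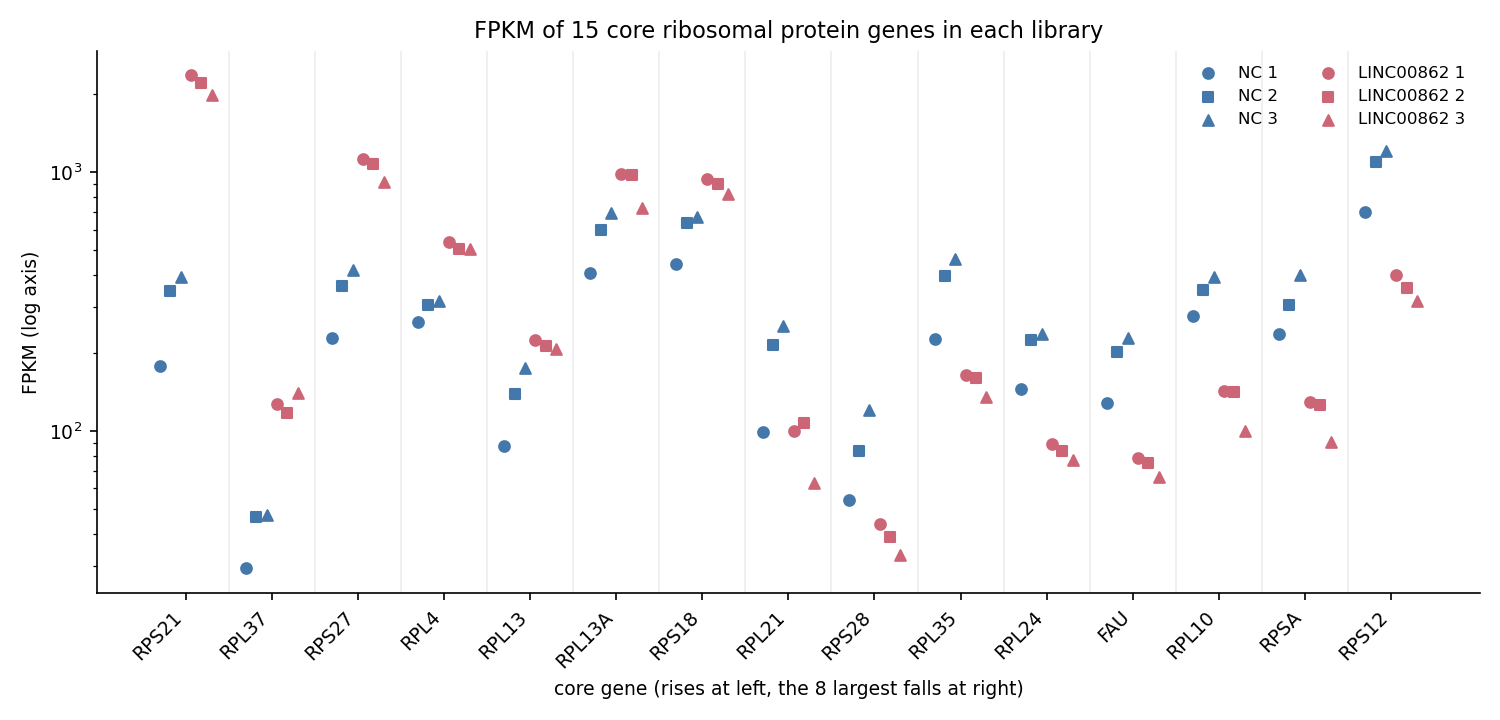
FPKM (log axis) of 15 core genes among those with the largest rises and falls at an adjusted p under 0.05, in each of the 3 NC and 3 LINC00862 libraries. Points are single libraries, with the replicate number shown by the marker. The groups do not overlap except for RPL21, whose NC replicate 1 (98.7) lies among the LINC00862 libraries.

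Read by role, no group of core proteins passed in all of its members when every library was used. None of the 3 acidic stalk proteins, which recruit translation factors to the ribosome, passed the test. RPLP1 was at FPKM of 149, 224 and 297 in NC and 346, 327 and 287 in LINC00862 (log2 fold change 0.67 ± 0.26, adjusted p = 0.0508), RPLP0 was at -0.09 ± 0.23 (adjusted p = 0.757) and RPLP2 at -0.25 ± 0.28 (adjusted p = 0.468, all edgeR). Of the 2 precursors in which a ubiquitin-like or ubiquitin domain is fused to a ribosomal protein, FAU fell and RPS27A did not pass (-0.26 ± 0.25, adjusted p = 0.382, edgeR). Of the 4 proteins at the mRNA channel and decoding site, RPS2 (-0.07), RPS3 (0.18), RPS15 (-0.59) and RPS23 (-0.45), none passed. At the peptide exit tunnel RPL4 rose, RPL17 fell (-0.87 ± 0.23, adjusted p = 0.00814) and RPL39 was at -0.56 ± 0.23 (adjusted p = 0.0585, edgeR). Without NC replicate 1 both fusion precursors and all 3 exit tunnel proteins passed, as did RPLP2 (-0.52, adjusted p = 0.0192), RPS15 (-0.87, adjusted p = 0.00124) and RPS23 (-0.69, adjusted p = 0.00177, edgeR), while RPS2, RPS3, RPLP0 and RPLP1 did not.

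RPL5 and RPL11, which link the ribosome to p53, both fell. RPL5 had FPKM of 202, 274 and 291 in NC and 151, 139 and 138 in LINC00862, and RPL11 had 218, 325 and 348 in NC and 185, 170 and 166 in LINC00862. Neither overlapped, and their log2 fold changes were -0.68 ± 0.20 (adjusted p = 0.0147) and -0.61 ± 0.22 (adjusted p = 0.036, edgeR). RPL23, another protein that binds MDM2, was at -0.51 ± 0.22 (adjusted p = 0.0682, edgeR), and fell without NC replicate 1 (-0.71, adjusted p = 0.00146, edgeR). Of 15 genes mutated in Diamond-Blackfan anaemia, the inherited red cell failure caused by loss of 1 ribosomal protein allele, 4 fell (RPS28, RPL15, RPL5 and RPL11) and none rose. Their median was -0.24, and 26.7% fell, against 29.8% of all genes lower and 64.2% in either direction. Without NC replicate 1, 10 of the 15 fell and none rose (66.7%, against 29.6% of all genes lower and 65.5% in either direction).

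The paralogs as a set had no rise. RPL26L1, a close copy of RPL26, had FPKM of 49.5, 72.1 and 66.8 in NC and 15.2, 16.7 and 14.01 in LINC00862. The highest LINC00862 library was well under the lowest NC library, and the log2 fold change was -1.88 ± 0.20 (SE, adjusted p = 3.79e-05, edgeR). RPL39L, a copy of RPL39 known for its expression in testis and in some tumours, had FPKM of 15.3, 27.6 and 27.5 in NC and 6.22, 7.25 and 3.90 in LINC00862. It too did not overlap, with a log2 fold change of -1.88 ± 0.31 (SE, adjusted p = 0.000582, edgeR). RPL7L1, a relative of RPL7 that acts in large-subunit assembly, fell by 0.65 (SE 0.15, adjusted p = 0.00423, edgeR), from FPKM of 22.6, 18.5 and 15.8 to 10.1, 12.4 and 9.41. Unlike every core gene, RPL7L1 was highest in NC replicate 1. Of the 6 paralogs tested 3 fell and none rose (50.0%, against 29.8% of all genes lower and 64.2% in either direction), with a median of -0.52.

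The other 3 paralogs tested did not pass. RPS27L, a p53-inducible copy of RPS27, was at -0.38 ± 0.22 (adjusted p = 0.159), RPL36AL, a copy of RPL36A, at -0.28 ± 0.24 (adjusted p = 0.343), and RPL22L1, a copy of RPL22 that can act against its parent in development, at -0.09 ± 0.22 (adjusted p = 0.738, edgeR). RPS27L (-0.59, adjusted p = 0.006) and RPL36AL (-0.51, adjusted p = 0.0151) passed without NC replicate 1, which brought the paralogs that fell to 5. RPL3L, the heart and skeletal muscle copy of RPL3, had counts of 0, 0 and 4 in NC and 4, 10 and 7 in LINC00862 and was not tested. RPL10L was not analysed here.

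The coding sequence of RPL39L is shown with that of RPL39 because the pair is nearly identical and RPL39L fell further. The log2 fold changes were -1.88 for RPL39L and -0.56 for RPL39, which did not pass the test. Both are read 5′ to 3′ from GENCODE 29 on GRCh38 without the stop codon, with the bases that differ in capitals. RPL39L lies at chr3:187120948-187139484 (minus strand) and RPL39 at chrX:119786506-119791643 (minus strand).
RPL39L: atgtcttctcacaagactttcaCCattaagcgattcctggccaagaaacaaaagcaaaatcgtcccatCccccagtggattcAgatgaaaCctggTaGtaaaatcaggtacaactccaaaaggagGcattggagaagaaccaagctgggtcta
RPL39: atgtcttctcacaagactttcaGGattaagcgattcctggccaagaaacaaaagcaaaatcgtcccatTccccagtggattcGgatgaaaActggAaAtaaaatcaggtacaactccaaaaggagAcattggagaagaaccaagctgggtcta
Of 153 coding bases 145 were identical (94.8%), and the longest identical run was 44 bases. RPL26L1 and RPL26 shared 84.1% of 435 coding bases, and RPS27L and RPS27 shared 77.8% of 252. Reads of RPL39L and RPL39 may be shared where they do not reach a differing base, so that pair is uncertain. RPL36AL and RPL36A had a longer identical run, of 60 bases, so the same holds for them.

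Set against its parent in the same library, which cancels the low level of NC replicate 1 where both share it, the paralog's part of a pair changed in either direction. RPS27L made up 27.8%, 27.2% and 24.1% of the counts of RPS27L and RPS27 in NC and 6.71%, 6.60% and 8.78% in LINC00862. The groups were far apart, and the log2 ratio differed by -2.18 between them, with the parent RPS27 rising and RPS27L not passing the test. RPL26L1 fell from 10.5%, 9.61% and 9.89% of its pair to 2.61%, 3.18% and 2.45% (difference of log2 ratio -1.98), while RPL26 was at 0.10 ± 0.22 (adjusted p = 0.72, edgeR). RPL39L took 8.24%, 8.83% and 9.02% of its pair in NC and 3.70%, 4.71% and 2.78% in LINC00862 (difference -1.33).

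The other pairs, apart from RPL3L, had smaller differences. RPL7L1 took 19.04%, 12.5% and 10.5% in NC and 5.97%, 7.74% and 6.97% in LINC00862 (difference -1.10), with NC replicate 1 the highest. RPL36AL took 36.9%, 35.3% and 37.7% of its pair in NC and 43.9%, 43.7% and 44.3% in LINC00862 (difference 0.44), where RPL36A had fallen. RPL22L1 took 9.32%, 10.9% and 9.92% in NC and 12.3%, 11.03% and 12.7% in LINC00862 (difference 0.29), with the nearest libraries of the groups almost touching. For RPL3L, with its few counts, the ratios overlapped (exact permutation p = 0.2). In each of the other 6 pairs the exact two-sided permutation test gave p = 0.1, the smallest that 3 libraries against 3 allow, or 0.117 after Benjamini-Hochberg adjustment over 7 pairs, so none could reach 0.05. In every pair the sign of the difference stayed the same when any library was left out.

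**Figure D3:**
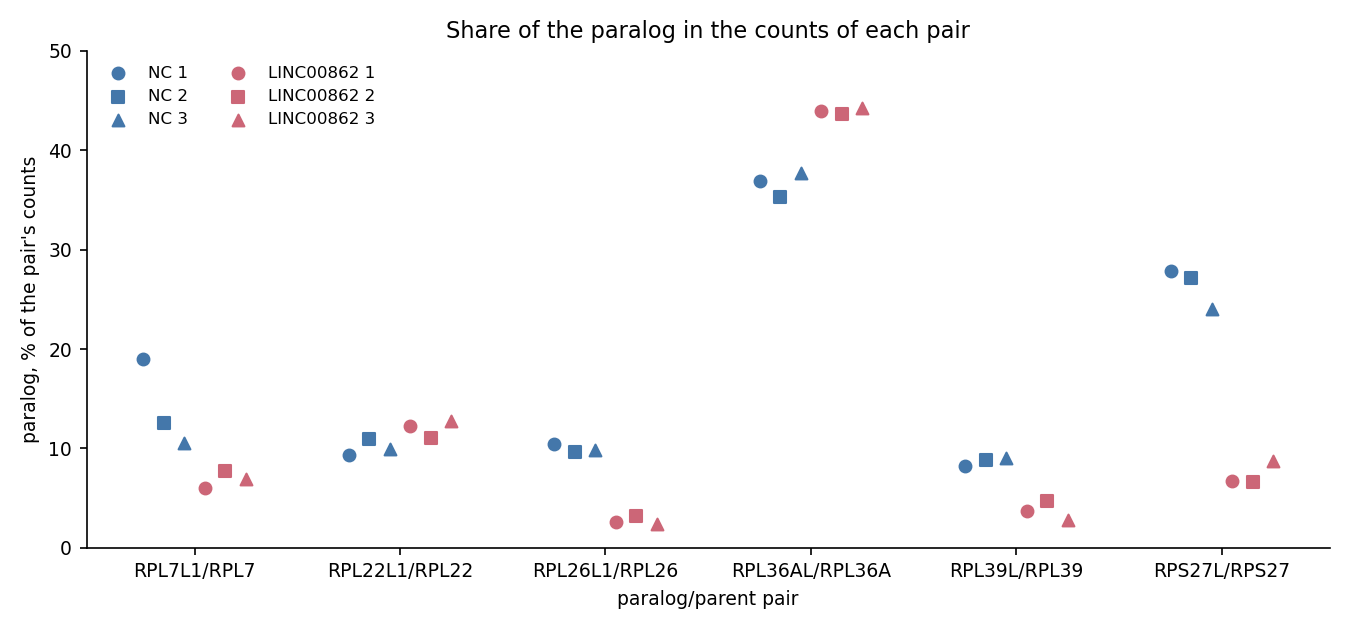
Counts of the paralog as a percentage of the counts of paralog and parent together (vertical axis) for 6 pairs, in each of the 3 NC and 3 LINC00862 libraries. Points are single libraries. The share is lower in LINC00862 for RPL7L1, RPL26L1, RPL39L and RPS27L and higher for RPL22L1 and RPL36AL, with no overlap in any of the 6 pairs.

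Ribosomal protein genes have many processed pseudogenes, copies of their mRNA inserted elsewhere, whose reads cannot always be told from those of the parent. The table named 513 pseudogenes of the members, which together took 0.165% to 0.301% of counts. Of the 154 tested, 19 rose and 24 fell (27.9% in all, against 64.2% of all genes), with a median of -0.24. RPL10P9 had counts of 7166, 10513 and 12903 in NC and 969, 832 and 522 in LINC00862, a log2 fold change of -3.66 ± 0.29 (SE, adjusted p = 6.56e-06, edgeR), so it fell further than its parent RPL10. RPS28P7 had counts of 2704, 4550 and 6273 in NC and 8099, 6611 and 5708 in LINC00862 (0.66 ± 0.29, adjusted p = 0.0756, edgeR), with overlap. Pseudogenes took 26.5% to 28.4% of the reads of RPS28 and its pseudogenes in NC and 53.5% to 55.1% in LINC00862. For RPL21 the pseudogene part was 49.6%, 29.3% and 26.9% in NC and 36.5%, 29.7% and 42.75% in LINC00862, highest in NC replicate 1. With pseudogene reads added to the parent, RPS28 was at -0.35 (adjusted p = 0.321, edgeR), and 25 of the 26 core calls stayed. RPL21 was then at -0.87 (adjusted p = 0.0138, edgeR). The readthrough gene RPL17-C18orf32, which overlaps RPL17, had counts of 736, 834 and 900 in NC and 684, 0 and 0 in LINC00862. Whether reads were assigned differently at RPL17 between libraries was not tested.

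The genes that rose most lay among neighbours that were higher too. For each member the 10 nearest tested coding genes, 5 on each side and none of them a member, were taken. Around RPS21 7 were higher and 2 lower with a median of 3.33, among them OSBPL2 (5.61), LAMA5 (4.09) and ADRM1 (3.01), while the median of chromosome 20 was -0.48. Around RPS27 8 were higher and none lower (median 2.31, chromosome 1 median -0.14), and around RPL37 8 were higher and none lower (median 1.68, chromosome 5 median -0.28). RPL10 lay among 9 that were lower (median -2.41), with FLNA at -5.22, and the chromosome X median was -0.64. Of the 8 core genes that rose, 6 had more neighbours higher than lower, and of the 18 that fell 16 had more neighbours lower than higher. Of the 52 core genes that did not pass, 25 had more neighbours lower and 19 more higher. The same was not counted around other genes, so whether the pattern is particular to ribosomal protein genes was not tested.

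Some members lay away from the median of their neighbours, and those named here were picked for that difference. RPS19 (0.18), RPS13 (-0.01) and RPS20 (0.18) lay among neighbours with medians of 6.79, 3.57 and 2.02 and did not pass the test. RPLP1 (0.67) lay among neighbours with a median of -1.77, RPL13A (0.80) among neighbours at -0.39, and the paralog RPL39L (-1.88) among neighbours at 0.64. Over the 78 core genes Pearson's r between a gene's log2 fold change and the median of its neighbours was 0.50 and Spearman's rho 0.53, given as a description across genes on 21 chromosomes that share all 6 libraries and partly share windows. The cause of the shared direction was not tested.

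Genes that make and regulate ribosomes, as listed, passed about as often as all genes did in either direction, but more of them fell than rose. Of all genes 34.4% were higher and 29.8% lower. Of 58 ribosome biogenesis genes 7 rose and 30 fell (63.8%, against 64.2% of all genes), with a median of -0.42. The largest falls were in EBNA1BP2 (-2.5) and MRTO4 (-2.04), factors of large-subunit assembly, and POLR1E (-2.35), a subunit of RNA polymerase I, and FBL, the rRNA methylase, was at -1.68 (adjusted p = 0.000193, edgeR). BRIX1 (1.02), RIOK1 (0.85) and NOB1 (0.84) rose. Of 13 chaperones and importers of ribosomal proteins 8 fell and none rose (61.5%, median -0.76), led by BCCIP (-1.97), PDCD2 (-1.48) and NAP1L1 (-1.38), and GRWD1, which escorts RPL3, was at -0.82 (adjusted p = 0.00579, edgeR). Of 30 other mRNAs with TOP tracts 6 rose and 11 fell (56.7%, median -0.04), with NPM1 at -1.5, SNHG12 at -1.47, GAS5 at 1.16 and SNHG8 at 1.22, and with EEF1A1 at -0.01 (adjusted p = 0.97, edgeR).

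Regulators of translation were split. Of 21 tested genes of TOP and translation control 4 rose and 9 fell (61.9%, median -0.24). MYC, which drives ribosomal protein transcription, had a mean FPKM of 109 ± 5.68 in NC and 41.9 ± 1.000 in LINC00862 (SD, n = 3), a log2 fold change of -1.21 ± 0.13 (SE, adjusted p = 4.93e-05, edgeR). TIAL1 (-2.10) and RPTOR (-1.29), the latter a part of the mTOR complex, also fell, LARP1B rose (1.91) and LARP1 was at -0.24 ± 0.17 (adjusted p = 0.251, edgeR). Of 13 ribosome-bound and hibernation factors 1 rose (ZNF598, 1.05) and 8 fell (69.2%, median -0.53), among them HABP4 (-3.35) and SERBP1 (-1.43), which occupy the mRNA channel of idle ribosomes.

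Of 18 p53 targets 5 rose and 6 fell (61.1%, against 64.2% of all genes, median 0.02). GDF15 (6.96) was the largest rise and FAS (-1.49), SESN1 (-1.40) and BAX (-1.38) the largest falls, while CDKN1A was at 0.02 ± 0.18 (adjusted p = 0.945) and MDM2 at 0.10 ± 0.12 (adjusted p = 0.51, edgeR). The 78 mitochondrial ribosomal protein genes, which build the separate ribosome of the mitochondrion, had 19 rises and 30 falls (62.8%, median -0.22). They ranged from MRPS18C at -2.03 to MRPS30 at 3.73, a wider range than that of the core cytosolic genes.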

How the data were processed

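RNA from 3 NC and 3 LINC00862 libraries of HCCLM3 cells was captured with oligo(dT) beads and sequenced on a strand-marking protocol. Deposited per gene were the raw count of reads, not normalized, and the FPKM, which the authors scaled by gene length and library size. The submitters' processing notes name cutadapt 1.9, HISAT2 2.0.4, UMI-tools, StringTie 1.3.4d, DESeq2, edgeR and the build hg38. Which program counted the reads, and whether molecular identifiers were collapsed, is not given in the sources used here. Set so that 401 genes with 1 transcript matched GENCODE 29, the length behind the FPKM ranged from 639 to 9845 bases among 84 members, more than most of their mRNAs, so FPKM was not used to rank members as moles. Columns of the authors' own comparison were not used.

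Counts were filtered with filterByExpr, scaled by TMM and tested by the quasi-likelihood test of edgeR 4.0.16 (R 4.3.3). Benjamini-Hochberg adjustment ran over the 20741 genes kept, and a gene passed at an adjusted p under 0.05. Standard errors were derived from each test statistic. Paralog and parent were compared as log2((paralog + 0.5)/(parent + 0.5)) of counts by an exact permutation test. Alternatives were DESeq2 1.42.0, limma-trend 3.58.1 on log2(FPKM + 1) and log2(FPKM + 0.1), other scalings and filters, a test against a fold change of 1.5, a false discovery rate of 0.01, pseudogene reads added to the parent, a replicate block and leaving out each library. The fits were tested on simulated data. Named genes were LINC00862, the paralogs and parents, genes of the role groups, the 8 largest rises and 8 largest falls of the core, and the 3 largest of each direction in each other list; the neighbours named and FBL, EEF1A1, LARP1, CDKN1A, MDM2 and single pseudogenes were chosen after their values were seen. The members and lists were chosen with earlier results of these data known. All 85 members matched GENCODE 29 by identifier and overlapped its gene on the same strand, but only 22 had the same start and end. By symbol 68 matched the RefSeq start-site table. Depth lay between 58241123 and 68229070 counts, so counting error is small for every member but RPL3L. Some genes counted in the totals are not reported by name here.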

Additional observations from a re-analysis of the deposited data

How the results depend on the processing

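The core calls depended on the libraries and the scaling. The 26 core calls (8 higher, 18 lower) became 56 without NC replicate 1, with 48 lower, and over the libraries left out in turn they ranged from 15 to 56, the higher from 5 to 11 and the lower from 9 to 48. Without NC replicate 2 or LINC00862 replicate 2 15 passed, and without LINC00862 replicate 1 16 passed. Of all genes, 58.1%, 56.5% and 55.7% passed in those fits, in that order, and 65.5% without NC replicate 1. The paralogs passing ranged from 3 to 5. With library size only 42 core genes passed and 35 were lower, with upper quartile scaling 9 were lower, and with limma-trend 28 (pseudocount 1) or 29 (pseudocount 0.1) were lower. Of all genes, 63.9%, 64.4%, 65.5% and 66.5% passed in those fits, in that order. Against a fold change of 1.5, 10 core genes passed (4 higher, 6 lower), with 50.4% of all genes passing. At a false discovery rate of 0.01, 12 core genes passed (4 higher, 8 lower), with 52.4% of all genes passing. DESeq2 called 35 (44.9% of the core, against 54.0% of the 26787 genes it gave an adjusted p), including all 26. The cause of these differences was not tested. The core median stayed below 0 in 14 alternatives, from -0.53 to -0.10. RPL22L1, which did not pass the test (-0.09), ranged from -0.30 to 0.04 over the libraries left out. It turned to 0.12 with upper quartile scaling, 0.03 without NC replicate 2, 0.04 without NC replicate 3 and 0.01 without LINC00862 replicate 2.

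The replicate numbers did not pair the samples: same-numbered libraries correlated at -0.049, -0.025 and -0.007 in their deviations from the group means, and none correlated best with its own number. With a replicate block 21 core genes passed (8 higher, 13 lower), all of them among the 26, and 3 paralogs did. Of all genes 58.3% passed with that block. The difference in the share of counts, -0.74 percentage points, was -0.80 with pseudogenes, 0.19 outside abundant genes and -1.57 without NC replicate 1, an alternative chosen after seeing the data. The spread of the core genes in NC, a median SD of 0.483 on the log2 scale, limits what 3 libraries can show.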
